A study of Mus musculus with 35 samples.

Results

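The tachykinins are a family of neuropeptides that were covered here by 4 genes, Tac1, Tac2, Tacr1 and Tacr3. All probes whose platform gene symbol was one of these were taken, which gave 5 of the 24620 probes on the array and 4 of 15967 named genes. Tac1 had probe ILMN_1251000, Tac2 had ILMN_2771036, Tacr3 had ILMN_1237995, and Tacr1 had ILMN_2726849 and a second probe, ILMN_2588928. RNA came from punches of frozen brain of test-naive male mice aged 3 to 4 months, of the inbred strains A/J and C57BL/6J. No mouse carried an engineered allele or received a treatment according to the labels, and each sample was hybridized to an array of its own. Amygdala was punched on both sides of the brain, while the hippocampal tissue came from the left side. Of the 35 arrays, 18 held hippocampus, 9 from each strain, and 17 held amygdala, 8 from A/J and 9 from C57BL/6J. The comparisons asked how the members differed between the regions and between the strains. The punches held all cell types of the tissue, so more cells of a type and more RNA per cell cannot be told apart.

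Tac1 encodes the precursor of substance P and neurokinin A, and Tac2 encodes the precursor of neurokinin B (the human gene of this precursor is TAC3). The precursors are cut inside secretory vesicles, the peptides are released from neurons, and they act on G protein-coupled receptors that signal mainly through Gq and phospholipase C. Substance P acts with highest affinity on the receptor encoded by Tacr1, and neurokinin B on the receptor encoded by Tacr3. In the amygdala, substance P and its receptor are known for their part in anxiety-related and stress responses, and Tac2 neurons of the central amygdala are known from studies of fear memory in mice.

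The labelled regions were set against marker genes first. Over all tested probes, 12.2% were called by region and 5.76% were called higher in amygdala. Of 7 tested hippocampal markers, 6 were lower in amygdala and none was higher. Smoc2 was undetected on all amygdala arrays and entered the test through hippocampus alone, and of the other 6 markers 5 were lower. The summed level of the 7 markers was 851 to 2265 in amygdala against 7080 to 13142 in hippocampus. Of 6 tested thalamic markers, 5 were lower in amygdala, with summed levels of 1210 to 4353 in amygdala and 2175 to 11971 in hippocampus. Of 6 tested markers of striatal medium spiny neurons, 5 were higher in amygdala, with summed levels of 960 to 10296 against 349 to 742 in hippocampus. Sums are of normalized intensities, the log2 levels taken back to the linear scale. The number of probes detected per array, which stands for depth here, was 6243 to 11039 in amygdala and 6099 to 10722 in hippocampus.

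The precursors Tac1 and Tac2, detected in both regions, were both called higher in amygdala than in hippocampus, against 5.76% of the 10408 tested probes. The receptors Tacr1 and Tacr3 were detected on none of the 18 hippocampus arrays and entered the test through amygdala alone, so their calls, also higher in amygdala, were bound to follow and are given as a description. The calls used limma with an adjusted p threshold of 0.01. Tac1 and Tac2 differed by 3.39 and 3.35 on the log2 scale, and the fitted differences of Tacr1 and Tacr3 were 2.32 and 0.92. No member was called between the strains, against 5.89% of all tested probes, and none was called for an interaction of strain with region, against 0.0673%. The plot of levels by array shows each probe in the 4 groups.

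**Figure D1:**
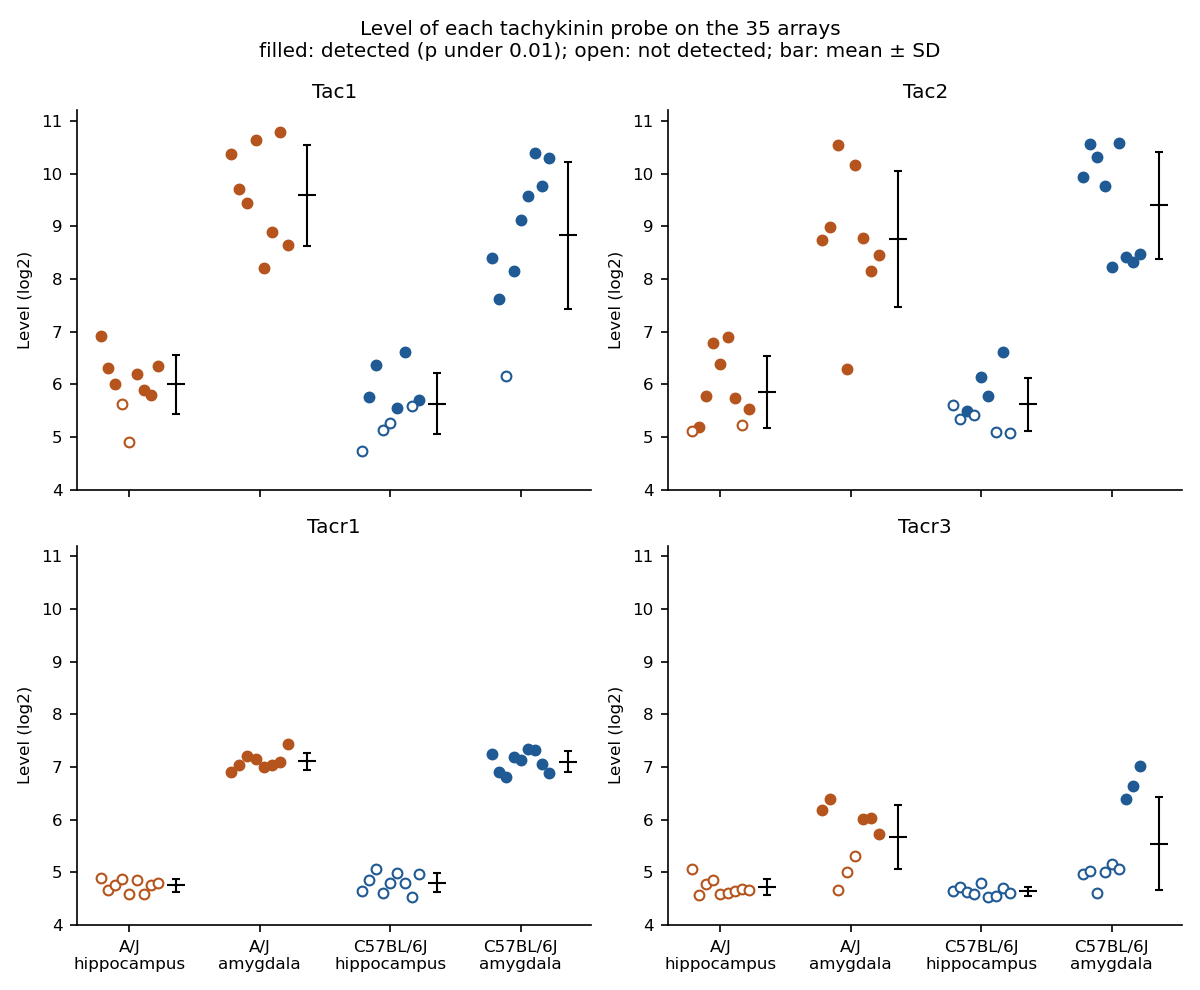
Normalized log2 level (vertical axis) of the Tac1, Tac2, Tacr1 and Tacr3 probes on each of the 35 arrays, by strain and region (horizontal axis). Filled points were detected at p under 0.01 and open points were not, and bars give the group mean ± SD. Tacr1 was detected on all 17 amygdala arrays and on none of the 18 hippocampus arrays, while Tac1 and Tac2 spread over several log2 units in amygdala.

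Tac1, on chromosome 6, was at 8.20 to 10.79 (median 9.57, n = 8) in A/J amygdala and at 6.15 to 10.39 (median 9.11, n = 9) in C57BL/6J amygdala, in normalized log2 units. In hippocampus it was at 4.91 to 6.92 (median 6.01, n = 9) in A/J and at 4.73 to 6.61 (median 5.59, n = 9) in C57BL/6J. The regions did not overlap in A/J. In C57BL/6J they overlapped through 1 array, amygdala replicate 3 at 6.15, and 16 of the 17 amygdala arrays lay above every hippocampus array. The shares of all tested probes with such patterns are not given, here or for Tac2 and Tacr3. Only the share with every amygdala array above every hippocampus array is known, 0.538%. Detection, a signal above the negative control beads at p under 0.01, was reached on 16 of 17 amygdala arrays and on 12 of 18 hippocampus arrays.

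The region difference of Tac1 was 3.39 on the log2 scale (SE 0.30, adjusted p = 2.8e-11, limma), or 10.5-fold with a lower 95% limit of 6.86-fold. It was 3.59 (SE 0.43) in A/J and 3.19 (SE 0.42) in C57BL/6J. The hippocampal mean of 5.82 lay near the lowest level detected on the hippocampus arrays, which averaged 5.67, so part of this size rests on values near background. With that floor in place of Tac1's own level wherever the floor was higher, the hippocampal mean was 6.13. On these means Tac1 was 8.29-fold higher in amygdala, a value without an interval. The 95% interval of the strain difference ran from -0.05 to 1.17 (A/J minus C57BL/6J, 0.56, adjusted p = 0.296, limma). A strain difference of about 2.25-fold therefore lay within the interval.

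Tac2, on chromosome 10, was at 6.29 to 10.54 (median 8.76, n = 8) in A/J amygdala and at 8.23 to 10.57 (median 9.76, n = 9) in C57BL/6J amygdala. Its hippocampal levels were 5.11 to 6.89 (median 5.74, n = 9) in A/J and 5.07 to 6.61 (median 5.50, n = 9) in C57BL/6J. Here C57BL/6J was the strain without overlap of the regions. In A/J they overlapped through amygdala replicate 4 at 6.29, the array that had the second-highest Tac1 level of its group, 10.63. Tac2 was detected on all 17 amygdala arrays and on 11 of 18 hippocampus arrays.

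The region difference of Tac2 was 3.35 (SE 0.29, adjusted p = 2.2e-11, limma), or 10.2-fold with a 95% interval of 6.73 to 15.4. It was 2.91 (SE 0.42) in A/J and 3.78 (SE 0.41) in C57BL/6J. The interaction was not called, at -0.87, with an interval from -2.06 to 0.33 (adjusted p = 0.696, limma). For Tac1 the interaction was 0.40, from -0.82 to 1.62. Without the arrays that stood apart, A/J amygdala replicate 4 and C57BL/6J amygdala replicate 3, the interactions were -0.40 for Tac2 and -0.09 for Tac1. With the floor of the hippocampus arrays placed as for Tac1, Tac2 was 9.68-fold higher in amygdala, again without an interval. Between the strains it differed by -0.20, with an interval from -0.80 to 0.39.

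The sequences before the starts of Tac1 and Tac2 are shown because both precursors were higher in amygdala and yet varied in different arrays of it. They are 250 bases before the annotated start, from RefSeq on build GRCm38.p6, on the plus strand, at chr6:7554811-7555060 for Tac1 and chr10:127724228-127724477 for Tac2. Capitals mark matches on either strand to TGACG, the core of the cAMP response element, to CACGTG, known as an E-box, and to TATAAA, a common core promoter element.
Tac1: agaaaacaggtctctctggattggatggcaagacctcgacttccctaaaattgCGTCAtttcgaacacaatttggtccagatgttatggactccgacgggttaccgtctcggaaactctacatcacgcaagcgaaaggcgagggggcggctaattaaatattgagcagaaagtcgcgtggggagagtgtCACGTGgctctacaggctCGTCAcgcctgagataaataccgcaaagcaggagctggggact
Tac2: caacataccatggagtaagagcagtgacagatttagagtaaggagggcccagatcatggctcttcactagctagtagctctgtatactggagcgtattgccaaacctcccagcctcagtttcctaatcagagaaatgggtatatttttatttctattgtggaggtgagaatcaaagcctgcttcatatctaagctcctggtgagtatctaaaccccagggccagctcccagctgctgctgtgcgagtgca
The Tac1 window held 2 matches to TGACG, at 197 and 43 bases before the start, and 1 match to CACGTG, at 61 bases before it. The Tac2 window held a match to none of the 3. Over all 32851 promoter windows of this length, 17.8% held TGACG, 6.02% CACGTG and 12.4% TATAAA. No matches overlapped each other.

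Tacr1, on chromosome 6 as Tac1 is, had the steadiest level of the members within amygdala on the quantile-normalized values. Before normalization its amygdala signals ran from 27.3 to 281.1. With arrays scaled to a common median, its level followed the number of detected probes (r = 0.94). In normalized log2 units Tacr1 was at 6.90 to 7.43 (median 7.06, n = 8) in A/J and at 6.81 to 7.35 (median 7.13, n = 9) in C57BL/6J amygdala. The SD over the 17 arrays was 0.17 against 1.23 for Tac1 and 1.17 for Tac2. In hippocampus it was at 4.58 to 4.90 (median 4.76, n = 9) in A/J and at 4.54 to 5.07 (median 4.80, n = 9) in C57BL/6J. Every amygdala array lay above every hippocampus array, which held for 0.538% of the tested probes. None of the 18 hippocampus arrays detected this probe, and detection on every amygdala array with none in hippocampus was found for 6 of all 24620 probes, 0.0244%.

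The fitted region difference of Tacr1 was 2.32 (SE 0.07, adjusted p = 3.0e-24, limma). Since hippocampus was not above background throughout, only a bound is known: Tacr1 was at least 2.70-fold higher in amygdala, at least 2.79-fold in A/J and at least 2.61-fold in C57BL/6J. With detection taken at p under 0.05 the bound was at least 3.37-fold. The probe passed the filter on low values through the amygdala arrays alone, so a difference by region was bound to follow. The strain difference was -0.02, with an interval from -0.17 to 0.12, the narrowest of the 4 members. In amygdala alone, where the probe was measured on every array, A/J minus C57BL/6J was 0.01, from -0.20 to 0.21. The upper limit stands for a 1.16-fold higher level in A/J, on the quantile-normalized values. With arrays scaled to a common median this difference was 0.17 (adjusted p = 0.650, limma).

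The second Tacr1 probe did not follow the first. It was detected on 1 of 35 arrays, an A/J amygdala array at 6.33, while the other amygdala arrays of both strains were at 4.40 to 5.10. It was not tested for lack of detection. Without a filter its region difference was 0.11, from -0.11 to 0.33. Its sequence is shown because the probes of this receptor gene disagree. The 50 bases lie in the coding sequence, in the part for the intracellular tail of the receptor.
Tacr1 second probe: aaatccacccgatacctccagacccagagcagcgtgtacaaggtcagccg
The levels of the 2 probes were not compared with each other, as probes differ in their brightness.

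Tacr3, on chromosome 3, was the lowest in detection. It was detected on 5 of 8 A/J and 3 of 9 C57BL/6J amygdala arrays and on none in hippocampus, so it met the minimum of 8 arrays exactly, through amygdala alone. Its level was 4.67 to 6.39 (median 5.87, n = 8) in A/J amygdala and 4.60 to 7.02 (median 5.07, n = 9) in C57BL/6J amygdala. In hippocampus it was 4.57 to 5.06 (median 4.67, n = 9) in A/J and 4.54 to 4.80 (median 4.63, n = 9) in C57BL/6J. The regions overlapped in both strains, and 11 of 17 amygdala arrays were above every hippocampus array.

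The fitted region difference of Tacr3 was 0.92 (SE 0.18, adjusted p = 1.5e-04, limma). As for Tacr1, a difference by region was bound to follow from the filter, so the calls of this probe support nothing. No bound can be given over all arrays, since the mean in amygdala, 5.60, was under the floor of 5.67. With detection taken at p under 0.05, the amygdala mean was 1.18-fold above the hippocampal floor. At that threshold 1 of 18 hippocampus arrays and 8 of 17 amygdala arrays detected Tacr3, so this value is no bound either. Within A/J the difference of 0.95 passed the threshold (adjusted p = 0.00879, limma), where 4.46% of all tested probes were called higher in amygdala. Within C57BL/6J the difference of 0.90 did not (adjusted p = 0.0142), where 2.41% were. These calls lay close to the threshold, and the interaction was 0.05, from -0.67 to 0.77. Without single arrays the A/J call was lost in 21 of 35 fits and the C57BL/6J difference passed in 3 of 35. In chip lot 2 alone the pooled difference was 0.56 and not called (adjusted p = 0.326, limma). A chip lot here is a set of chips whose numbers start alike, since the labels name none.

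The window before the start of Tacr3, the receptor gene paired with Tac2, is shown for comparison with that of Tac2 and with the same motifs in capitals, at chr3:134828757-134829006 on the plus strand.
Tacr3: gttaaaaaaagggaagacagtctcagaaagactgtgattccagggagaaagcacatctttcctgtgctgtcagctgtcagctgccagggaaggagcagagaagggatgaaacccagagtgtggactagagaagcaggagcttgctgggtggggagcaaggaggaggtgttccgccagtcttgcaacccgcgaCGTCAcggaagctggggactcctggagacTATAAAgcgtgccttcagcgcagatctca
It held 1 match to TGACG at 58 bases and 1 match to TATAAA at 29 bases before the start. These matches describe letters in the window, not bound sites.

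Of the remaining family genes, Tac4, which encodes hemokinin, was detected on 0 of 35 arrays, with levels of 4.42 to 5.04. Tacr2, which encodes the receptor preferred by neurokinin A, had no probe here.

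**Figure D2:**
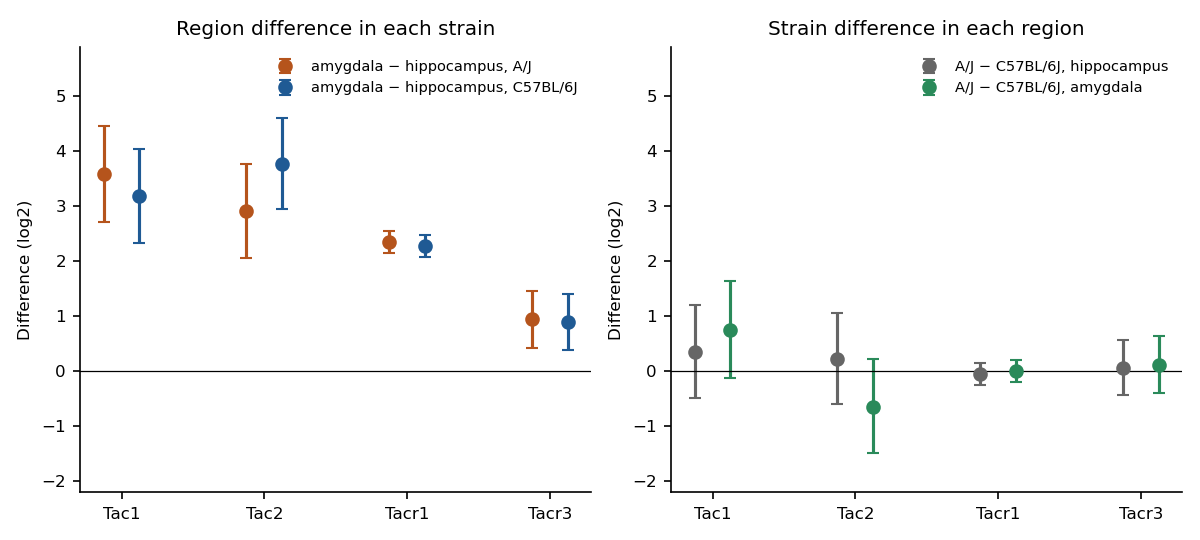
Differences of the 4 tested members on the log2 scale (vertical axis) with 95% intervals from limma, between regions in each strain (left) and between strains in each region (right). All region differences lie above 0, from 0.90 to 3.78, and every strain interval includes 0.

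In each gene the order of the group means put both amygdala groups above both hippocampus groups. For Tac1 and Tacr3 A/J amygdala came first, with means of 9.58 ± 0.96 (SD, n = 8) and 5.66 ± 0.61 (SD, n = 8). For Tac2 C57BL/6J amygdala came first, with 9.40 ± 1.02 (SD, n = 9) against 8.76 ± 1.30 (SD, n = 8) in A/J. For Tacr1 the amygdala mean of A/J was 7.11 ± 0.16 (SD, n = 8), and that of C57BL/6J lay next to it at 7.10 ± 0.20 (SD, n = 9). Neighbours of the same region were not separated beyond their spread in any member. No strain difference within a region was called, against 3.38% of tested probes in hippocampus and 4.02% in amygdala, and of the region differences within a strain only that of Tacr3 in C57BL/6J was not called. In amygdala the strain difference of Tac1 was 0.76, from -0.12 to 1.64, and 0.42 without C57BL/6J replicate 3. That of Tac2 was -0.64, from -1.49 to 0.22, and -0.28 without A/J replicate 4. Without both arrays the differences were 0.28 and -0.17.

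Chips were examined next, since arrays share a chip. Both regions were present on 10 chips, and Tac1 and Tac2 were higher in amygdala on all 10. Tacr1 and Tacr3 were as well, which is only a description, since both entered the test through amygdala alone. The share of all tested probes with this pattern is not given. The difference within a chip was 2.0 to 5.20 (median 3.56) for Tac1 and 1.54 to 4.67 (median 3.32) for Tac2. It was 2.04 to 2.55 (median 2.34) for Tacr1 and 0.10 to 2.35 (median 1.22) for Tacr3. Strain was not balanced between the regions on every chip, so some of these differences hold strain as well as region. The highest Tac1 and the lowest Tac2 difference came from a chip with A/J amygdala and C57BL/6J hippocampus. For Tacr3, 4 chips gave differences of 0.10 to 0.41, while the other 6 gave 1.12 or more. With the number of detected probes as a covariate, the region differences were 3.30 for Tac1, 3.44 for Tac2, 2.32 for Tacr1 and 0.87 for Tacr3.

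**Figure D3:**
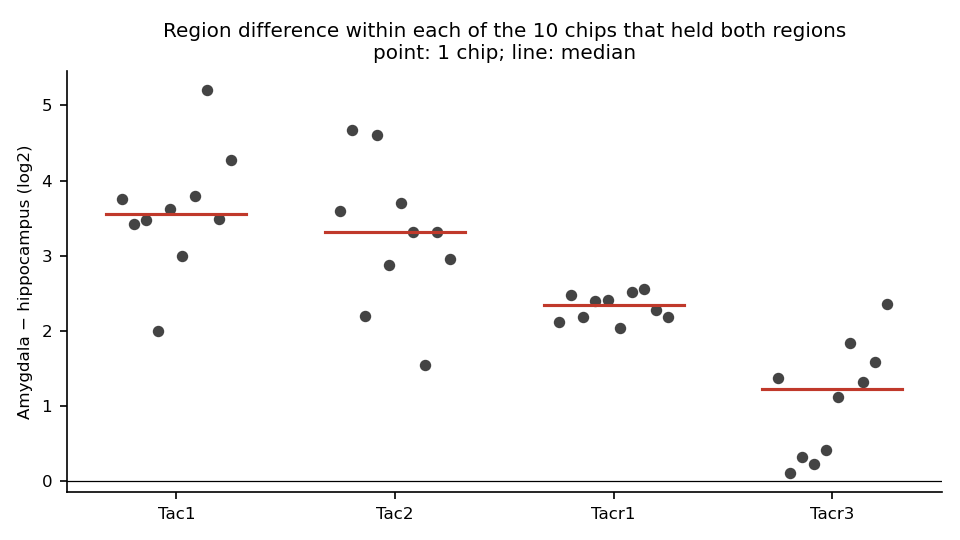
Amygdala minus hippocampus on the log2 scale (vertical axis) within each of the 10 chips that held both regions, for each member. Points are chips and lines are medians, which were 3.56, 3.32, 2.34 and 1.22 for Tac1, Tac2, Tacr1 and Tacr3.

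The members varied differently among the 17 amygdala arrays. Tac2 fell into separate bands: 7 arrays, 2 of A/J and 5 of C57BL/6J, were at 9.76 to 10.57, 9 arrays were at 8.15 to 8.98, and A/J replicate 4 was at 6.29. The 7 arrays of the upper band had 6243 to 8160 detected probes and the 9 of the middle band had 8873 to 11039, so the bands did not overlap in depth. Before normalization the Tac2 signals of these bands overlapped, at 400.6 to 1189.6 and 285.0 to 748.9. Where a common median was used in place of quantile normalization the bands met, at 9.29 to 10.47 and 8.15 to 9.42, while on the authors' processed values they stayed apart, at 8.55 to 9.11 and 7.91 to 8.16. The part of depth and of normalization in the bands was not tested.

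Because of these bands no correlation of Tac2 over all amygdala arrays is given. Within the upper band Tac1 was at 6.15 to 9.58, and within the middle band at 8.65 to 10.79. The correlation of Tac2 with Tac1 was 0.20 in the upper band (n = 7, exact permutation p = 0.655, two-sided, rho 0.29) and -0.21 in the middle one (n = 9, exact permutation p = 0.579, rho -0.35). Over 12 such relations of Tac2 within the bands, the lowest adjusted p was 0.793. The bands were cut on Tac2's own levels, which narrows its range within each. These values therefore cannot decide whether Tac2 varied with the others, and they are given as a description.

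Tacr3 followed the number of detected probes in amygdala. Over the 17 arrays r was 0.91 (permutation p = 1e-05, the smallest the permutations can give, two-sided; adjusted p = 1.2e-04 over 12 relations) and rho was 0.90 (permutation p = 1e-05). It was 0.93 in A/J (n = 8, exact permutation p = 3.7e-04) and 0.91 in C57BL/6J (n = 9, exact permutation p = 2.1e-04), and 0.94 and 0.93 within the lots. Without the 2 arrays farthest from the median depth r was 0.91. The highest Tacr3 level, 7.02, was on the array with the most detected probes, 11039.

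Tac1 also followed depth, with r = 0.68 (permutation p = 0.00232, adjusted p = 0.00972) and rho = 0.66 (permutation p = 0.00464), and r = 0.70 without the 2 farthest arrays. By strain, r was 0.27 in A/J (n = 8, exact permutation p = 0.522) and 0.84 in C57BL/6J (n = 9, exact permutation p = 0.00433), and whether these differed was not tested. Tac1 and Tacr3 varied together, with r = 0.60 (permutation p = 0.0113, adjusted p = 0.0226) and rho = 0.57 (permutation p = 0.0182). That relation did not hold without the 2 arrays farthest from the median Tac1 level (r = 0.48, permutation p = 0.0750), and r was -0.06 once the number of detected probes was fitted out of both. Tacr1 did not follow depth on these values, with r = -0.11 (permutation p = 0.679) and rho = -0.23 (permutation p = 0.385). On median-scaled arrays the same r was 0.94, so this relation turned on the normalization.

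**Figure D4:**
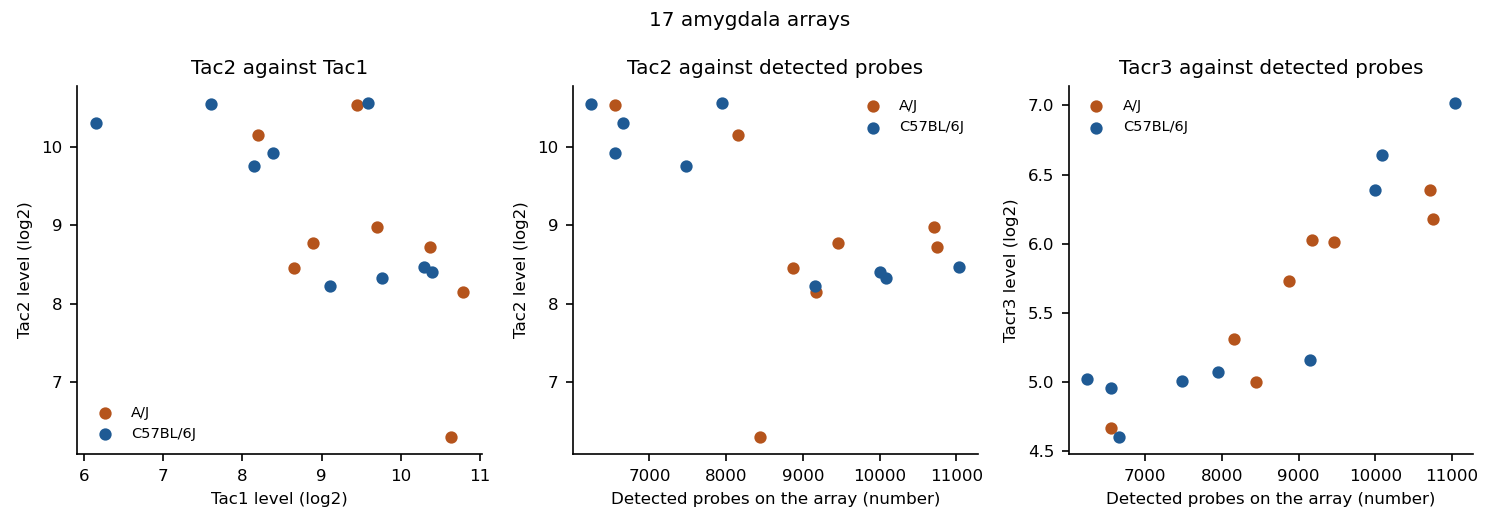
The 17 amygdala arrays, coloured by strain: Tac2 against Tac1 (left, both log2), and Tac2 (middle) and Tacr3 (right) in log2 against the number of detected probes on the array. Tac2 lies in an upper band on arrays with at most 8160 detected probes, and Tacr3 runs from 4.60 to 7.02 with the number of detected probes.

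Markers of neighbouring tissue varied among the amygdala arrays as well. The summed level of the 6 striatal markers was 1930 to 10296 in A/J and 960 to 4488 in C57BL/6J amygdala. Tac1 was higher where its log2 value was higher, with r = 0.67 (permutation p = 0.00324, adjusted p = 0.00972) and rho = 0.57 (permutation p = 0.0198), but the relation did not hold without the 2 farthest arrays (r = 0.44, permutation p = 0.103). Within A/J r was 0.73 (n = 8, exact permutation p = 0.0393) and within C57BL/6J it was 0.59 (n = 9, exact permutation p = 0.0970). It was 0.74 once the number of detected probes was fitted out. Tacr1 followed the striatal sum by rank (rho = 0.56, permutation p = 0.0204, adjusted p = 0.0408). Its r was 0.46 (permutation p = 0.0609), and 0.36 without the 2 farthest arrays. Tacr3 did not follow the striatal sum, with r = 0.04 (permutation p = 0.873). Of the 4 tested hypothalamic markers, 3 were higher in amygdala, against 5.76% of all tested probes. Avp was undetected on all hippocampus arrays and entered through amygdala alone, and of the other 3 markers 2 were higher. The summed level of the 4 markers was 251 to 1478 in amygdala against 127 to 333 in hippocampus. Among the undetected or seldom detected ones, Pomc was detected on 0 arrays, Kiss1 on 2, Hcrt on 5 and Ghrh on 7. Tac1 was lower where this sum was higher, with r = -0.67 (permutation p = 0.00274, adjusted p = 0.00972) and rho = -0.75 (permutation p = 8.4e-04), and r was -0.61 without the 2 farthest arrays but -0.35 once the number of detected probes was fitted out. Within A/J r was -0.72 (n = 8, exact permutation p = 0.0338) and within C57BL/6J -0.63 (n = 9, exact permutation p = 0.0658). Tacr3 was also lower where the hypothalamic sum was higher (r = -0.63, permutation p = 0.00728, adjusted p = 0.0175; rho = -0.54). That r was 0.13 once the number of detected probes was fitted out. Tacr1 did not follow the hypothalamic sum, with r = 0.03 (permutation p = 0.904). The part of these tissues in the levels of the members was not tested.

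The patterns most like those of the members over the 35 arrays were looked up among the tested probes of other named genes, as a description. Tac1 was most like Ido1, Ptpn5 and Slc32a1, each at r = 0.93, where Ido1 encodes an enzyme of tryptophan breakdown, Ptpn5 a striatum-enriched phosphatase and Slc32a1 the vesicular GABA transporter. Tac2 was most like Cartpt (r = 0.95), Tmem91 (0.95) and Gpx3 (0.94), and Tacr1 most like Dgkk (0.99), Htr1d (0.98) and Isl1 (0.98). Cartpt encodes the precursor of the CART peptides, Gpx3 a secreted glutathione peroxidase, Dgkk a diacylglycerol kinase, Htr1d a serotonin receptor and Isl1 a homeobox factor of striatal and other neurons. Tacr3 was most like AW551984 (0.93), Il13ra1 (0.90) and Camk2d (0.87), of which Il13ra1 encodes an interleukin receptor subunit and Camk2d a calmodulin-dependent kinase subunit. Each of these 12 probes was called higher in amygdala. This is no separate result, since they were picked for likeness to members that differ between the regions.

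Taken as deviations from the 4 group means, which removes region and strain, other genes came first for Tac1 and Tac2. Tac1 was then most like Myo5a, a myosin motor (r = 0.83), Kcnab1, a potassium channel subunit (0.82), and Mtcl1 (0.81), and Tac2 most like 9130401M01Rik, Olah and Crip1, each at 0.88. None of these 3 neighbours of Tac2 was called by region, with differences from -0.28 to 0.06. Among the members, Tac2 stood at r = -0.58 with Tac1, -0.11 with Tacr1 and -0.40 with Tacr3 on these deviations. The r values of Tac2 pool its bands in amygdala, and the part of depth in them was not tested. Tacr1 kept Dgkk (0.68) and Htr1d (0.62) after Rassf4 (0.73), and Tacr3 kept AW551984 (0.89) and Il13ra1 (0.85) before Vdr (0.83), the vitamin D receptor.

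The wider pathway was described from lists of genes, with 1 probe per gene. Of 9 tested peptides released from the same or neighbouring neurons, 7 were higher and 1 was lower in amygdala, against 5.76% of all tested probes called higher and 12.2% called in either direction. Penk and Nxph4 were undetected on all 18 hippocampus arrays and entered through amygdala alone. Of the other 7 genes, 5 were higher and 1 lower, with a median difference of 1.34 against a median of 0.00 over all tested probes. Cartpt was higher by 2.77 (SE 0.25, adjusted p = 4.9e-11, limma), from group means of 6.86 and 6.93 in A/J and C57BL/6J hippocampus to 9.37 and 9.95 in amygdala. Cck, the cholecystokinin precursor, was the 1 lower gene, at -2.18 (SE 0.23, adjusted p = 1.5e-09). Gal, the galanin precursor, was the gene of this list called between the strains, lower in A/J by -1.57 on the log2 scale (SE 0.22, adjusted p = 1.3e-06). The authors found sequence differences between the strains within many probes of their strain-specific module, which read mostly lower in A/J. Whether such differences lie within the probes of Gal or of the strain-called genes named below was not tested. Crh and Vip were detected on 0 arrays and not tested.

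Of the other Gq-linked peptide receptors, 5 of 12 on the array were tested, and 4 of these were higher in amygdala and none lower, against 5.76% of all tested probes called higher. Brs3 entered through amygdala alone, being undetected on all hippocampus arrays, and of the other 4 genes 3 were higher (median difference 0.94). Cckbr, a cholecystokinin receptor, was higher by 1.05 (SE 0.14, adjusted p = 2.9e-07, limma). Ntsr2, a neurotensin receptor, differed by strain at -0.36 on the log2 scale, A/J being below C57BL/6J (SE 0.09, adjusted p = 0.00615), and was not called by region. Of 9 tested Gq signalling genes, against 12.2% of all probes called by region, none was higher and 2 were lower in amygdala, Prkcd at -1.83 (SE 0.20, adjusted p = 2.7e-09) and Prkca, both of them protein kinase C genes. Prkcd was also on the list of thalamic markers, 5 of which were lower in amygdala. Of 5 tested genes of receptor desensitization, which are receptor kinases, arrestins and dynamin, none was called by region or strain.

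The enzymes that make and break the peptides came last, beside 12.2% of all tested probes called by region and 5.89% by strain. Of 5 tested genes of precursor processing none was called by region, and Scg5, which encodes a chaperone of a prohormone convertase, was higher in A/J by 1.28 (SE 0.11, adjusted p = 2.9e-11, limma). The convertase gene Pcsk1 was detected on 0 arrays. Of 5 tested genes of tachykinin degradation, Ece1, an endothelin-converting enzyme that also cleaves substance P, was higher in amygdala by 0.54 (SE 0.09, adjusted p = 2.2e-05). Ece2 was lower in A/J, at -0.77 (SE 0.14, adjusted p = 1.7e-04). Mme, which encodes neprilysin, the best known of these peptidases, was detected on 0 arrays.

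**Figure D5:**
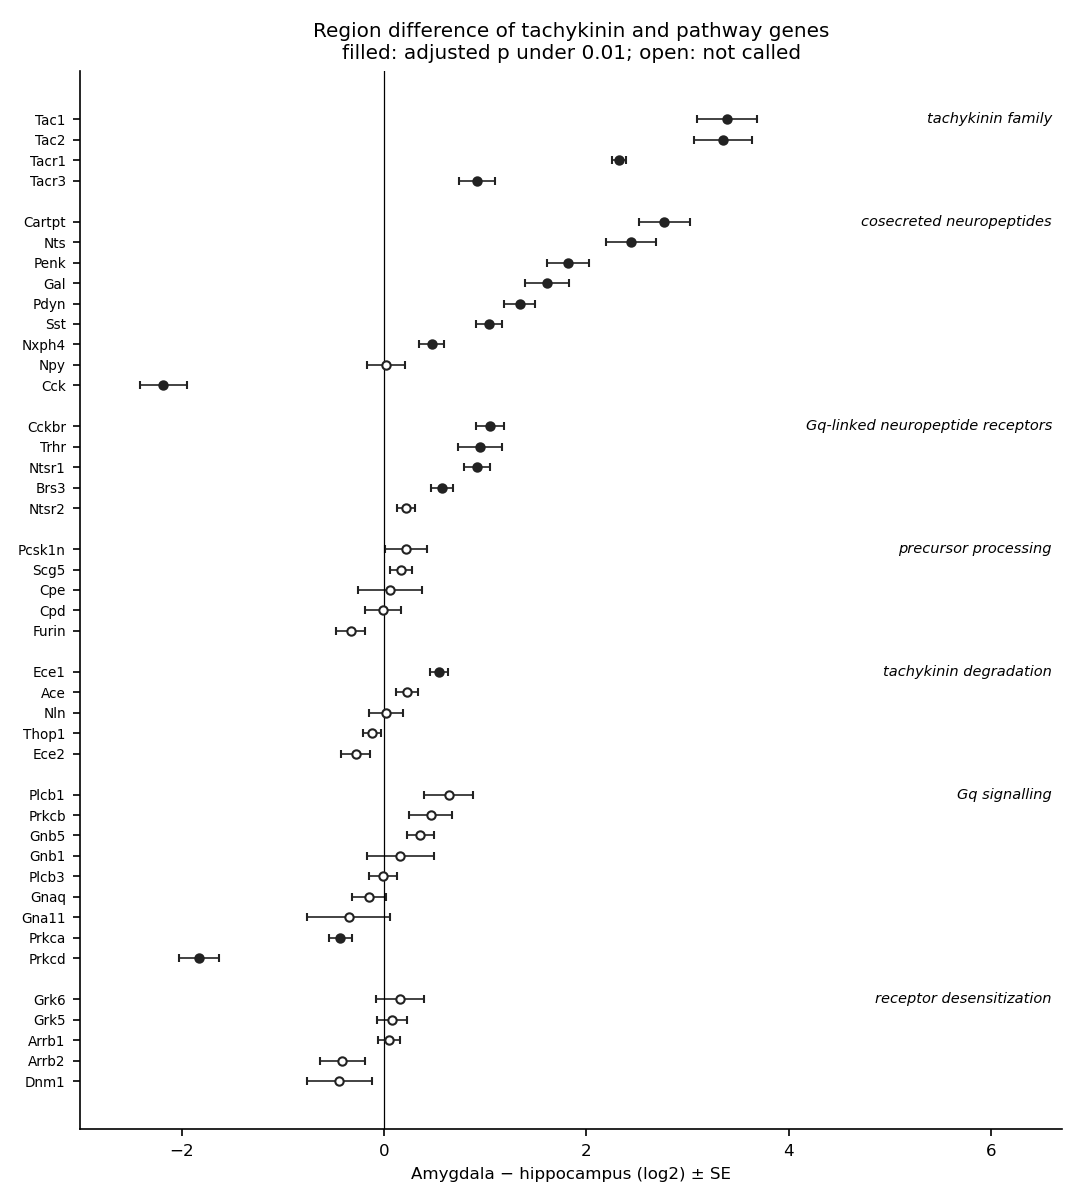
Amygdala minus hippocampus on the log2 scale ± SE (horizontal axis) for the tested tachykinin genes and the genes of 6 related lists (vertical axis). Filled points passed an adjusted p of 0.01. Filled points to the right of 0 include both tachykinin precursors, 7 of 9 accompanying peptides and 4 of 5 related receptors, against 5.76% of all tested probes. Among them Penk, Nxph4 and Brs3 were undetected on all hippocampus arrays and entered through amygdala alone. The filled points of Cck and Prkcd lie to the left at -2.18 and -1.83.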

How the data were processed

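Illumina MouseRef-8 arrays were used. The authors extracted signals with BeadStudio, named also in the submitters' processing notes, with the average of each array's negative control beads taken off. The deposited table gives linear intensities from -55.4 to 37793.8 with detection scores, in decimal commas, for 24620 probes, and 31.0% of the signals are at or below 0. The authors' second table holds log2 values of 24613 probes, deposited after a variance-stabilizing transformation and spline normalization with Lumi, and served as an alternative. That table compresses low values. The methods describe this step as following background correction, with a repeat run without it.

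Here log2 levels were computed from the signals with neqc of limma 3.58.1 in R 4.3.3 (normexp, offset 16, quantile normalization). Probes detected at p under 0.01 on at least 8 arrays were tested (10408). One limma fit of the 4 group means gave region (amygdala minus hippocampus), strain (A/J minus C57BL/6J) and interaction, with Benjamini-Hochberg adjustment over all tested probes and a threshold of 0.01. The fit was tested on simulated data. Where a whole group was undetected, the fold is a bound: the mean of the brighter group against, per array, the higher of the lowest detected level and the probe's own. Correlations used 100000 permutations, or all orders for groups under 10. The number of arrays limits the precision, 8 or 9 a group, each with tissue of 1 mouse. The labels do not tie regions to animals. One gene symbol was given for 20984 probes, several for 1 and no symbol for 3635. All 3 promoter windows shown were matched by symbol to RefSeq.

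The members and the gene lists were chosen with earlier results of these data known. Named were all member probes and Tac4 and Tacr2. In 6 pathway lists (precursor processing, tachykinin degradation, Gq signalling, receptor desensitization, Gq-linked receptors, cosecreted peptides) the called genes with the largest region difference in each direction and the largest strain difference were named. For each member the 3 most similar probes of other named genes were named too. Prkca and the undetected Crh, Vip, Pcsk1 and Mme were named after their values were seen. Marker lists were used as counts and sums, to be read beside 5.76% of all tested probes called higher in amygdala. GABA neuron markers had 3 of 5 higher in amygdala (sums 7057 to 18757 against 3715 to 6592), oligodendrocyte markers 6 of 7 (19524 to 58696 against 11437 to 44003), choroid plexus markers 1 of 4, and astrocyte (6) and microglia (5) markers none. Alternatives were another scaling, no normexp, the authors' values, other filters, chip blocks, lots, depth as a covariate, array weights and leaving out each array.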

Additional observations from a re-analysis of the deposited data

Results flagged for a closer look

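Of 24 combinations of a probe and a group, 1 had a value far from the rest. The second Tacr1 probe was at 6.33 on 1 array of A/J amygdala, and the nearest of the other 7 arrays was at 5.10, a gap of 0.649 of the range of the group. The limit for such a gap is one that chance passes in about 1 of 20 groups.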

How the results depend on the processing

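The region differences of Tac1 and Tac2 kept their direction and their call under all alternatives. So did that of Tacr1, given as a description, since this probe entered through amygdala alone. That of Tacr3 lost its call in chip lot 2 alone (0.56). On the authors' processed values, whose scale compresses low levels, the differences were 0.74 for Tac1, 0.66 for Tac2, 0.13 for Tacr1 and 0.05 for Tacr3, all called. Within strains, calls were lost for Tac2 in A/J on the authors' values and in lot 2 (0.54 and 2.79), and for Tac1 in C57BL/6J in lot 2 (2.38). Tacr3 lost its call in A/J in 7 of 12 alternatives and gained one in C57BL/6J in 7 of 12. With array weights the strain difference of Tac1 in amygdala was called (1.27, adjusted p = 0.00810, limma). No other strain difference or interaction of a member was called under any alternative. Leaving out each array gave region differences of 3.29 to 3.56 for Tac1, 3.22 to 3.52 for Tac2, 2.30 to 2.34 for Tacr1 and 0.83 to 0.99 for Tacr3, all called.

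Over all tested probes, the calls moved by over 1.5 times. By region they were 1267, and 2125 with array weights, 679 in chip lot 1 and 368 in lot 2. By strain they were 613, and 1754, 315 and 241. For the interaction they were 7, and 169, 1 and 0, and also 4 with chip as a fixed block, 4 with detection on at least 17 arrays and 14 with depth as a covariate. Leaving out each array gave 1183 to 1298, 568 to 630 and 6 to 12 calls. The smaller lots hold 21 and 14 arrays; for the other settings the cause was not tested.

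The relation of Tac1 to Tacr3 in amygdala turned from 0.60 to -0.06 once the number of detected probes was fitted out. That of Tac1 to Tacr1 moved from 0.25 to -0.06 on the authors' values, 0.83 with median scaling and 0.44 with detected probes fitted out, and that of Tacr1 to Tacr3 from -0.14 to 0.72 with median scaling. These 3 settings, the bands of Tac2, the counts without genes undetected in a whole region and the fit without the arrays of lowest Tac1 and Tac2 were chosen after seeing the data. No paired analysis was possible because the replicate numbers were given in accession order and the labels do not tie samples to animals. Median scaling moved the median strain difference of all probes to 0.13.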
